A study of Mus musculus with 3 samples.

Results

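STAT5A binding was described in windows given for 5 genes of the Tc1 program, the interferon-gamma-producing and cytotoxic state of CD8 T cells. The genes were the transcription factor genes Tbx21 and Eomes and the effector genes Ifng, Gzmb and Prf1. The members were the chromatin immunoprecipitation sequencing (ChIP-seq) peaks with their centre in 5 windows given for these genes on the mouse build mm9, 1170 kb in all. Whether the chromosome 14 window, given for Gzmb, holds that gene is in doubt, as described below. The windows held 15 of the 14627 peaks of library 1 and 22 of the 19236 peaks of library 2, which make up 29 of 25986 separate sites. Both libraries came from memory CD8 T cells of C57BL/6 origin with the TCRP1A receptor for the tumour antigen P1A. The cells were stimulated with the antigen and 24 h later were given STAT5CA, an active form of STAT5. They were cultured for 48 h more and were recovered from spleen and lymph nodes of congenic hosts 70 days after transfer, although a further label gives the tissue as blood. An antibody against STAT5A was used for both ChIP libraries. Both came from cells given STAT5CA, no group without it was profiled, and the share of cells that carried it is not known. The third sample, an input without antibody, was not analysed here for lack of a peak list, and nothing in the labels says whether the ChIP libraries came from separate animals or cultures. A peak list gives no expression, so the cell type was not checked against marker genes.

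STAT5 is switched on by receptors for cytokines such as IL-2 and IL-15, moves to the nucleus as a dimer and binds palindromic sites with the core TTCNNNGAA. In CD8 T cells T-bet, the product of Tbx21, and the related T-box factor eomesodermin, the product of Eomes, direct the genes of cytotoxic effector and memory cells. Among these genes are Ifng, which encodes interferon gamma, Gzmb, which encodes the protease granzyme B, and Prf1, which encodes the pore-forming protein perforin. The title of the study names a Tc1 program that depends on T-bet, so the question here was where STAT5A was found around these genes and whether both libraries found it.

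The windows given for Tbx21, Eomes and Ifng hold most of the sites found in both libraries. The stretches of 250 bases before the start of these genes are therefore shown, with the STAT core TTCNNNGAA in capitals where it occurs. They come from RefSeq for GRCm38.p6, read 5′ to 3′ along the gene, at chr11:97115332-97115581 (minus strand), chr9:118477939-118478188 (plus strand) and chr10:118440796-118441045 (plus strand).
Tbx21: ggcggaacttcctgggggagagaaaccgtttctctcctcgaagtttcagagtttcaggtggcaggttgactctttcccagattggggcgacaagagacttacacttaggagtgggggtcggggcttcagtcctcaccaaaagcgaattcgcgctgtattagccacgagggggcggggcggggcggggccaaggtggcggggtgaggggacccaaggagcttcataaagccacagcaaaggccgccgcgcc
Eomes: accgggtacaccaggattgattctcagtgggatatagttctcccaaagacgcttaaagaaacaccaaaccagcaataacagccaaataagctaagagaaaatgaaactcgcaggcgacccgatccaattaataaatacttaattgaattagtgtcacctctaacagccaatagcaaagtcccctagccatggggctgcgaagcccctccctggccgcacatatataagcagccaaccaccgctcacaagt
Ifng: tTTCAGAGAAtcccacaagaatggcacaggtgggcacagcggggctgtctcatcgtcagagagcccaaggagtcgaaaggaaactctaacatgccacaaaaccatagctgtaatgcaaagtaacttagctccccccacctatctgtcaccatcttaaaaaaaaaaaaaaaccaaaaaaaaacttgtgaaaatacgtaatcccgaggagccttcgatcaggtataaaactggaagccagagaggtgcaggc
These positions belong to another build than the peaks and cannot be set against them, so the distance from a peak to a start site, and whether a peak is exonic or intronic, were not analysed here.

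All 5 genes had 1 entry in the table of promoters, which runs from 250 bases before to 50 after each start. The core TTCNNNGAA, a palindrome that reads alike on both strands, occurred in the promoters of 2 genes, Ifng and Gzmb. In Ifng it lay at the far end of the stretch shown above, just inside its first base. In Gzmb it began at base 38 of the transcript, as ggcaggagttTTCATAGAAagca with the match in capitals. This core was held by 8.30% of all 32851 promoters listed, and by 9.55% of their 27025 genes in at least 1 promoter. The T-box element TCACACC was searched on both strands as TCACACC and GGTGTGA. Neither it nor the same core with 1 more base between its arms occurred in the promoters of the 5 genes, 0 of 5 for each. The wider core was held by 6.95% of all promoters and 8.01% of genes, and the T-box element by 3.98% and 4.6%. Among 28 other genes of cytotoxic cells and STAT5 signalling, 23 had an entry and 4 of these held TTCNNNGAA: Gzmm, Il12rb2, Socs3 and Cish. Cish, a feedback inhibitor that STAT5 is known to induce, held 2 copies, the first at base 1 of the transcript as ccgcccagttTTCCTGGAAagttcttgga.

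Over the 5 windows, 8 sites were found in both libraries, 7 in library 1 alone and 14 in library 2 alone. A site counted as shared when the peaks overlapped by at least 1 bp. The shared sites were 53.3% of the library 1 peaks in the windows (95% Wilson interval 30.1 to 75.2%), beside 53.9% over the whole list. They were 36.4% of the library 2 peaks (19.7 to 57.0%), beside 40.9% over the whole list. The library 2 share depends on the chromosome 14 window, whose place is in doubt as described below. Without that window it was 44.4% (24.6 to 66.3%), and with the window moved 1 Mb it was 42.9% (24.5 to 63.5%). The shares of the whole lists lie inside all of these intervals, and with so few peaks the intervals are wide. The name of the library 1 list carries an unexplained ending that the other lacks, so a further filter on library 1 may bear on the 14 sites of library 2 alone, and its part was not tested. With library 2 limited to its highest-scored peaks, as many as library 1 has, the windows held 15 of its peaks, of which 46.7% were shared. This limit fell among peaks with a score of 10, where ties were kept in order of chromosome name. Both values therefore depend in part on that order, and the share over the whole lists at equal length is not given here. A shared site was present in 4 of the 5 windows, at Tbx21, Eomes, Ifng and Prf1. The autosomes were divided into tiles of the same lengths as a background, and a shared site lay in 43.8% of tiles of 200 kb, 45.3% of 210 kb, 46.8% of 220 kb and 59.4% of 330 kb. The tiles were not matched to the windows for gene content. A low share of tiles therefore does not show that a window is unusual among stretches around genes.

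**Figure D1:**
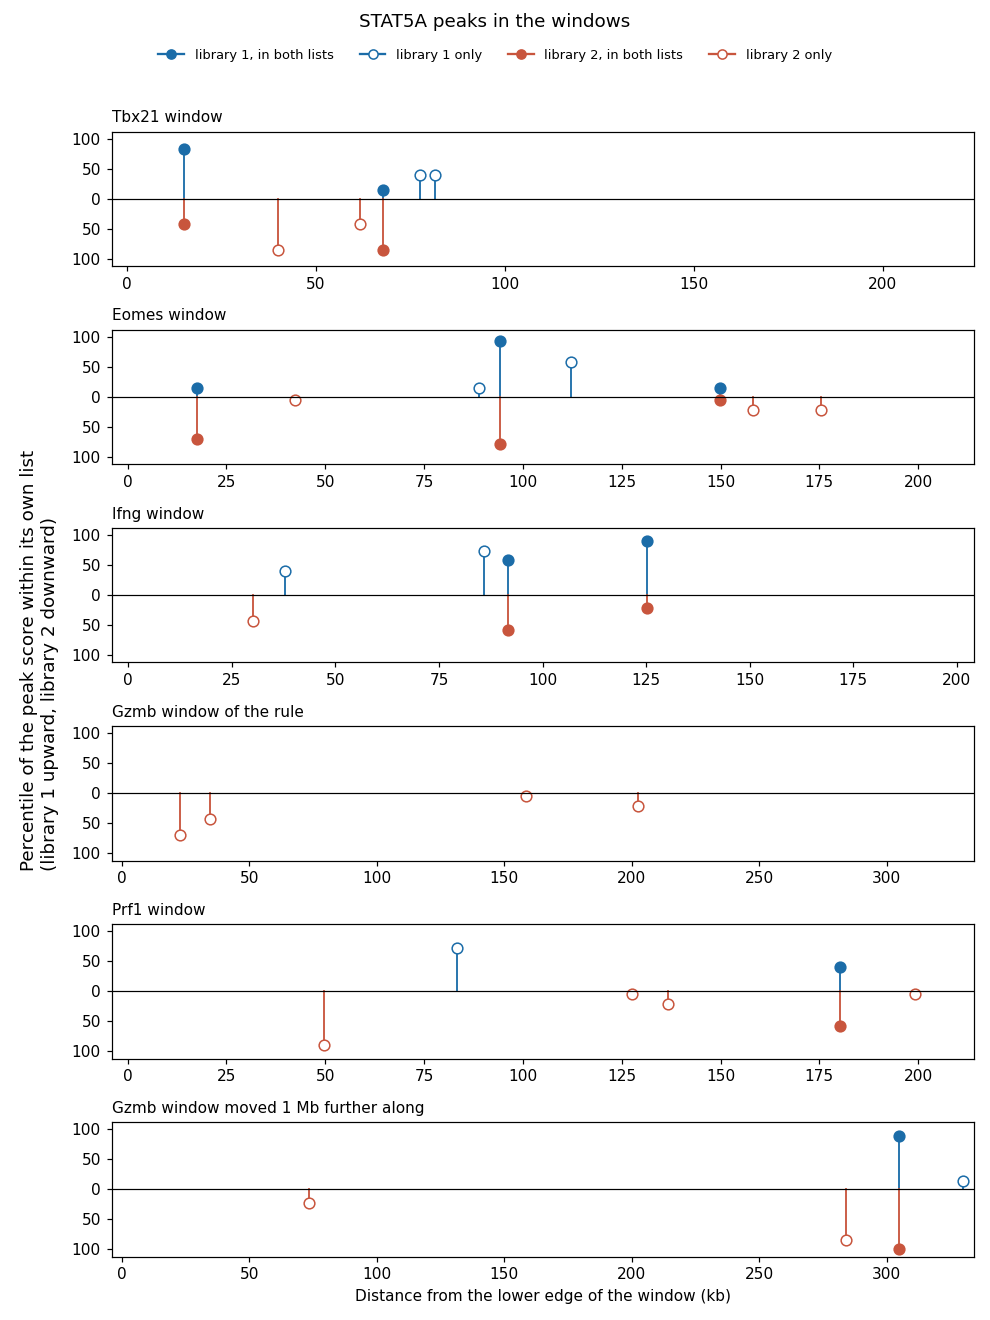
Position of each STAT5A peak, in kb from the lower edge of its window, with the percentile of its score within its own list on the vertical axis (library 1 upward, library 2 downward, filled points for sites in both lists and open points for sites in 1 list). The Tbx21 window is empty above 81.4 kb, and the Gzmb window of the rule has points of library 2 only.

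Scores are the authors' own values on no stated scale, so each was ranked within its list. A percentile is the share of the list with a lower score, with ties counted in equal parts on both sides. The peaks in the windows had scores of 23 to 47 in library 1, where the list runs from 19 to 179, and of 9 to 17 in library 2, where it runs from 8 to 267. Their median scores of 27 and 11 were equal to the medians of the lists, where many peaks have tied scores. Scores above the list median were held by 7 of the 15 library 1 peaks and 8 of the 22 library 2 peaks. Over the whole lists 49.4% and 48.8% of peaks had such scores. Scores as high as the best member, 47 in library 1 and 17 in library 2, were reached by 8.17% and 12.7% of the lists.

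Eomes had the most sites of the 5 windows. Its window, chromosome 9 from 118.29 to 118.5 Mb, held 5 peaks of library 1 and 6 of library 2 at 8 sites, of which 3 were shared. At least 3 shared sites occurred in 4.91% of autosomal tiles of the same 210 kb. As many sites of any kind occurred in 2.31%, or in 2.96% of the tiles of chromosome 9 alone. Of the 8 shared sites, the one with the highest rank by the lower of its percentiles in the lists lay here, at chr9:118384095-118384299 in library 1 with a score of 47 (percentile 93.5) and at 118384125 to 118384313 in library 2 with a score of 15 (percentile 78.1). By this measure 10.6% of all shared sites stood as high. The other shared sites of the window ranked lower in at least 1 list. The site at chr9:118307377-118307581 scored 23 (percentile 14.4) in library 1 and 13 (percentile 69.5) in library 2. The site at chr9:118439669-118439873 scored 23 and 9 (percentiles 14.4 and 5.38), near the bottom of both lists.

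Near the best-ranked Eomes site lay 2 peaks of library 1 alone, with scores of 23 at 5.38 kb and 31 at 17.9 kb from it. The 3 peaks of library 2 alone in the window, at chr9:118332177-118332365, chr9:118448233-118448421 and chr9:118465282-118465470, scored 9, 10 and 10. They stand at percentiles 5.38, 21.9 and 21.9, so the library 2 sites of Eomes that library 1 did not find were all of low score. In the RefSeq order of genes Eomes has Azi2, Cmc1 and the uncharacterised locus LOC115486419 on one side and Golga4, Itga9 and Ctdspl on the other, and no peak can be assigned to Eomes rather than to a neighbour from position in the window alone.

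At Tbx21 the peaks gathered in the lower part of the window. The window, chromosome 11 from 96.86 to 97.08 Mb, held 4 peaks of each library at 6 sites, 2 of them shared. At least 2 shared sites occurred in 17.0% of tiles of 220 kb, and as many sites of any kind in 8.67%, or in 14.7% of the tiles of chromosome 11 alone. The shared site at chr11:96875137-96875341 scored 39 in library 1 (percentile 82.5) and 11 in library 2 (percentile 42.4). The shared site at chr11:96927773-96927977 had the opposite ranks, with scores of 23 and 16 (percentiles 14.4 and 84.6), although the centres of its peaks were 2 bp apart. No Tbx21 site therefore ranked above the median score of both lists.

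Next to the second shared site of Tbx21 lay a run of sites with different support. It had a library 2 peak with a score of 11 at 6.05 kb on one side. On the other side were library 1 peaks at chr11:96937454-96937658 and chr11:96941276-96941480, both with a score of 27 and 3.82 kb apart. Each of these 4 sites had 3 others within 20 kb, namely the rest of the same run. At least 3 others lay that near for 3.48% of all autosomal sites. The remaining site, a library 2 peak at chr11:96899955-96900143, scored 16 (percentile 84.6) and the nearest library 1 peak was 24.8 kb away. The upper 139 kb of the window held no peak of either library. Tbx21 is flanked by Osbpl7, Mrpl10 and Lrrc46 and by Tbkbp1, Kpnb1 and Npepps in the RefSeq order.

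The Ifng window, chromosome 10 from 117.78 to 117.98 Mb, was the one in which library 1 had more peaks than library 2, with 4 against 3. They formed 5 sites, 2 of them shared, and at least 2 shared sites occurred in 15.0% of tiles of 200 kb. The shared site at chr10:117871594-117871798 was of middle rank in both lists, with scores of 31 and 12 (percentiles 58.6 and 57.9). The shared site at chr10:117905130-117905334 scored 43 in library 1 (percentile 89.2) and 10 in library 2 (percentile 21.9). The centres of the paired peaks of these sites lay 88 and 77 bp apart, the widest distances of the 8 shared sites, whose median was 22 bp. Over all 7877 shared sites the median was 27 bp, and 8.06% of pairs had centres at least 77 bp apart.

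A library 1 peak with a score of 35 (percentile 72.6) at chr10:117865816-117866020 lay 5.82 kb from the first shared site of Ifng and had no partner. Nearer the lower edge of the window, a library 2 peak with a score of 11 and a library 1 peak with a score of 27 lay 7.59 kb apart without overlapping. In the RefSeq order Ifng stands beside the cytokine gene Il22, its close copy Iltifb, and Mdm1, with Dyrk2, Cand1 and Grip1 on the other side.

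Prf1 had more sites in library 2 than in library 1. Its window, chromosome 10 from 60.66 to 60.87 Mb, held 2 peaks of library 1 and 5 of library 2 at 6 sites. At least 6 sites of any kind occurred in 7.54% of tiles of 210 kb. The 1 shared site, at chr10:60840161-60840365, scored 27 and 12 (percentiles 39.6 and 57.9). The best-ranked peaks of the window in each list were not shared: 35 in library 1 (percentile 72.6) at chr10:60743225-60743429 and 17 in library 2 (percentile 89.2) at chr10:60709476-60709664, which lay 33.8 kb apart. The other 3 library 2 peaks scored 9, 10 and 9. The neighbours of Prf1 in the RefSeq order are Sgpl1, Tbata and Adamts14, and Pald1, Nodal and Eif4ebp2.

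The window given for Gzmb and the granzyme cluster, chromosome 14 from 55.65 to 55.98 Mb, held no library 1 peak. It is the longest of the windows, at 330 kb, and 21.9% of autosomal tiles of that length held none either. Library 2 had 4 peaks there, with scores of 13, 11, 9 and 10, at chr14:55672838-55673026, chr14:55684548-55684736, chr14:55808177-55808365 and chr14:55852189-55852377. The nearest library 1 peak was 50.6 kb or more from each. The density of 1.21 sites per 100 kb was the lowest of the 5 windows, beside 2.50 to 3.81 in the other 4. It was not low beside the autosomes, where tiles of 330 kb held a mean of 3.46 sites and 40.8% held at least 4.

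Whether this window holds Gzmb is in doubt. No mm9 annotation was used, and general knowledge of mm9 places Gzmb about 1 Mb further along the chromosome, so the same window was also read 1 Mb further along, from 56.65 to 56.98 Mb. There library 1 had 2 peaks and library 2 had 3, at 4 sites. The shared site at chr14:56954782-56954986 scored 43 in library 1 (percentile 89.2) and 28 in library 2 (percentile 99.4), with centres 2 bp apart. Ranked by the lower percentile, 4.00% of all shared sites stood as high, so it ranked above each of the 8 shared sites in the windows of the rule. The remaining peaks were of library 2 alone, with scores of 10 and 16, and of library 1 alone, with a score of 23 at 0.148 kb from the upper edge. At least 1 shared site lay in 59.4% of tiles of this length. The placing of the window thus decides whether it is counted without a shared site or with the best-ranked one. That site lay 304.9 kb from the lower edge of the moved window of 330 kb. Position alone does not assign it to a granzyme gene. In the RefSeq order Gzmb follows Gzmn, Gzmf and Gzmc and precedes Atp12a, Rnf17 and Cenpj.

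**Figure D2:**
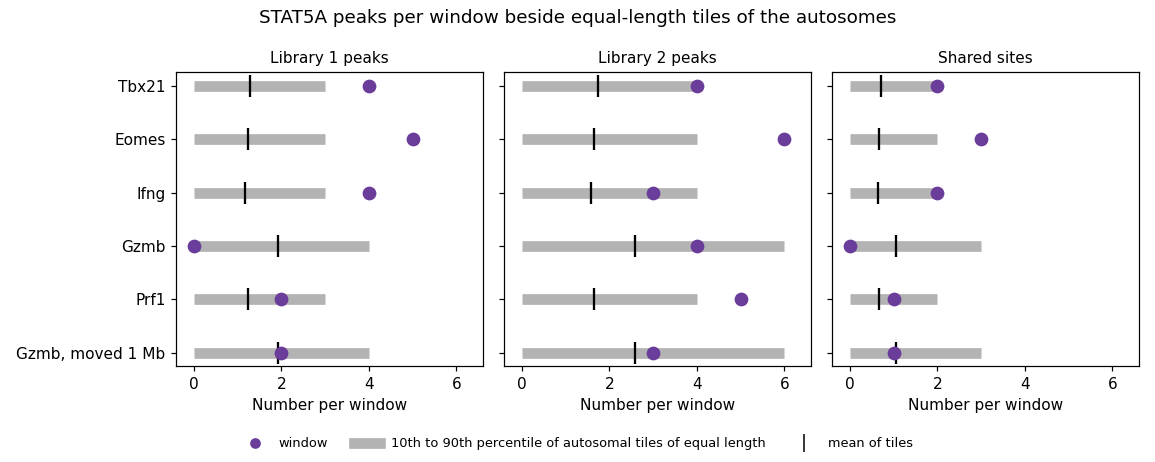
Number of library 1 peaks, library 2 peaks and shared sites in each window (points), beside the mean (black line) and the 10th to 90th percentile (grey bar) of autosomal tiles of equal length. The Eomes window lies above the bar in all 3 panels, with 5, 6 and 3, and the Gzmb window of the rule has 0 library 1 peaks and 0 shared sites.

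Among the member peaks of library 1, the 3 with the highest scores, 47 at Eomes, 43 at Ifng and 39 at Tbx21, were found in library 2, while both peaks with a score of 35, at Ifng and Prf1, were not. Over the whole list 63.8% of peaks with a score of 47, 66.9% with 43, 59.1% with 39 and 60.6% with 35 were shared. In library 2 the highest member score, 17 at Prf1, was not found in library 1, and of the 2 peaks with a score of 16, both at Tbx21, 1 was. Over the list 55.2% and 55.8% of peaks with these scores were shared. Of the 8 shared sites, 2 had scores above the median of both lists, 1 at Eomes and 1 at Ifng, beside 33.8% of all shared sites. Such ranks were not tested, since 2 libraries of 1 group give no comparison of conditions.

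**Figure D3:**
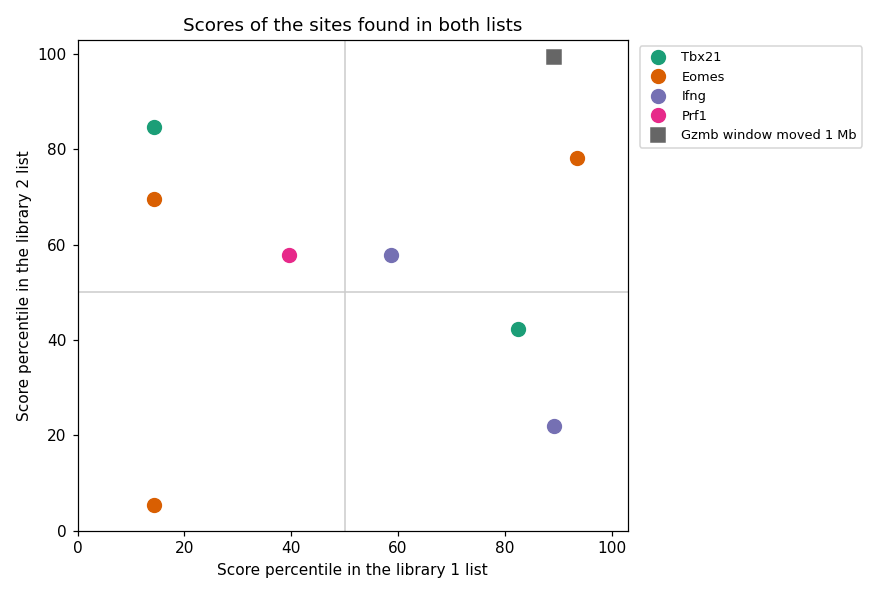
Percentile of the score in the library 1 list (horizontal) and the library 2 list (vertical) for the 8 shared sites of the windows and for the 1 of the Gzmb window moved by 1 Mb (grey square), with lines at 50. The Eomes site with scores of 47 and 15 and the square stand high on both axes, and the other sites of Tbx21 and Ifng that are high on 1 axis are at percentile 42.4 or lower on the other.

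The edges of the windows decide which sites are members. Just outside the upper edge of the Tbx21 window, at 17.8 kb, lay a shared site with scores of 83 and 13, higher in library 1 than any member. Shared sites also lay 5.43 kb below the Eomes window (scores of 31 and 13), 6.76 kb above it (23 and 11) and 17.1 kb above the Prf1 window (23 and 9). The members nearest to these edges were sites with scores of 27 in library 1 at Tbx21, 23 and 13 and, in library 2 alone, 10 at Eomes, and 9 in library 2 alone at Prf1. At Ifng the nearest sites outside were library 2 peaks 224 kb below and 55.2 kb above, with scores of 10 and 9. At the Gzmb window of the rule they were library 1 peaks 27.6 kb below and 11.7 kb above, with scores of 23 and 31.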

How the data were processed

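The deposited files are peak lists of the 2 ChIP libraries, 1 list for each, with a whole-number score per peak from the authors, whose scale no source states. The submitters' processing notes name HOMER and mm9 without a version or role; for the caller, its threshold, control and filters, such details are not given in the sources. The files hold no read totals, so the depth is unknown. Positions are counted from 1 on mm9. Libraries 1 and 2 are numbered in accession order, which pairs nothing.

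Windows were read from the rule for the members. Peaks overlapping by at least 1 bp were paired, nearest centres first, and shares have 95% Wilson intervals, which cover counting error only. Tiles ran from the first to the last peak of each autosome. Sites named are all peaks in the windows, and neighbours are the nearest 3 protein-coding genes on each side in RefSeq for GRCm38.p6, by order. The members and lists were chosen with earlier results of these data known, so values are described and no hypothesis test was run. Pairing was tested on simulated data made from the library 1 list of 14627 peaks, where all 7200 planted pairs were found. The planted peaks overlapped their sources by design, so this checks only the code and gives no rate of false pairs. Python 3.11.15, numpy 2.4.6, pandas 2.3.3, scipy 1.17.1 and matplotlib 3.10.9 were used. Alternatives covered the overlap rule, score threshold, list length, window edges, the chromosome 14 window and the tiles.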

Additional observations from a re-analysis of the deposited data

How the results depend on the processing

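The 8 shared sites and 29 sites were the same in number when centres had to lie within 100 bp or 500 bp or peaks overlapped by 50% of both widths. When peaks at or below the median score of their list were left out, 13 sites were left, 2 of them shared, in 2 windows. Then 28.6% of the 7 library 1 peaks left in the windows were found in library 2. The share over the whole lists under this limit is not given here, so the value cannot be called particular to these windows. Windows narrowed by 50 kb at each end held 17 sites, 5 of them shared, and windows widened by 50 kb held 40 sites, 13 of them shared. Library 1 or library 2 left out gave 22 or 15 sites. With equal list lengths, where ties in score were cut by chromosome name, there were 23 sites, 7 of them shared. With the chromosome 14 window moved, 9 shared sites in 5 windows were counted. The share of tiles of 210 kb with a shared site was 48.4% on the chromosomes of the windows alone, beside 45.3%. On chromosome 11 alone, a choice made after seeing the data, 14.7% of tiles held as many sites as the Tbx21 window, beside 8.67% over all autosomes. The same choice gave 2.96% beside 2.31% for Eomes and 12.3% beside 11.7% for Ifng. It gave 8.14% beside 7.54% for Prf1 and 34.9% beside 40.8% for the Gzmb window of the rule. Counting bases before the start alone, 1 of the 5 promoters held TTCNNNGAA. No paired analysis was possible because both lists belong to 1 group, and no list of another group was there to pair with them. Depth and input signal are unknown, so a site of low score may be background, and absence from a list does not show that STAT5A was not bound.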
